A study of Mus musculus with 24 samples.

Results

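The 9 genes described here encode insulin-like growth factor 1 (Igf1), its signalling receptor (Igf1r), the mannose-6-phosphate receptor that also clears IGF2 (Igf2r), and the IGF binding proteins Igfbp2 to Igfbp6 together with the related Igfbp7. Their probes were picked by gene name, and the group of genes was put together with earlier results of these arrays known. The microarray carried 17 probes for them among 56605 gene probes, and each gene is given by its probe with the highest mean signal, with its other probes as a check. The signal of all 9 of these probes was well above background on 24 of 24 arrays.

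RNA was taken from nerve fibres of C57BL/6 mice, dissected at the L4-L6 spinal segments. Efferent nerve fibres (EN) came from the ventral root and afferent nerve fibres (AN) from the dorsal root, at postnatal day 0 (P0), 1 week (1W), 3 weeks (3W) and 5 weeks (5W). Each of the 8 groups was measured on 3 arrays. The labels name no transgene, deletion or treatment for any group. The methods describe fibres collected into a single tube per group, but also name 3 independent experiments for each group. Both sexes were used equally across the study. How the tubes relate to the 3 arrays is not stated. The spread between arrays may therefore be partly technical, and p-values measure that spread only. The study asked how efferent and afferent fibres differ in gene expression and how each changes with age.

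IGF1 is a secreted peptide that acts through a receptor tyrosine kinase, which recruits adaptor proteins and switches on the PI3K and Akt cascade. In peripheral nerve it is known as a survival and growth signal for Schwann cells and neurons. Binding proteins hold most extracellular IGF, lengthen its life or keep it from the receptor, and are cut by proteases such as pappalysins. IGF2R carries no kinase and takes IGF2 to the lysosome.

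All levels below are log2 signals from the quantile-normalised table deposited by the authors, and values of different probes are not set against each other. A difference of 1 on this scale is a 2-fold difference. Differences carry the standard error (SE) of a limma fit over the 8 groups with 3 arrays in each, and a probe was called at a Benjamini-Hochberg adjusted p below 0.05 over the 36409 probes tested. On bulk tissue of this kind, fewer cells of a type and less RNA per cell cannot be told apart.

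The probes that carry the main findings are shown here because several of the genes were read by more than one probe. For Igf1, 3 probes at different places in the gene gave different courses, and their first 30 bases of 60 are printed with positions on mouse build mm9, plus strand of chromosome 10. The main probe A_51_P147942 lies at chr10:87393516-87393575. Probe A_55_P2085979 lies 15.06 kb away at chr10:87378456-87378515, and probe A_52_P306327 lies 68.134 kb away at chr10:87325382-87325441.
Igf1 A_51_P147942: cgcaggatcctttgctgcttgagcaacctg
Igf1 A_55_P2085979: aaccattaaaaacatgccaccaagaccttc
Igf1 A_52_P306327: taaaatagttgagtaaaatttgccactgat

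Igfbp2, which changed most with age, was read by a single probe at chr1:72898677-72898736, plus strand. Its 60 bases are printed whole because they can be read as 19 codons that end in a stop codon, shown in capitals.
Igfbp2 A_55_P2056729: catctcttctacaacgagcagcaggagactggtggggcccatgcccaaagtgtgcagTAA

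Igfbp3 and Igfbp6 held the clearest differences between the roots. The first 30 bases of their main probes follow, at chr11:7106193-7106252 on the minus strand for Igfbp3 and at chr15:101979852-101979911 on the plus strand for Igfbp6.
Igfbp3 A_55_P2803213: gagctttccttgagagcacaaaggaatctc
Igfbp6 A_66_P139546: ctgtcacccttgggcctttacacagctagt

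**Figure D1:**
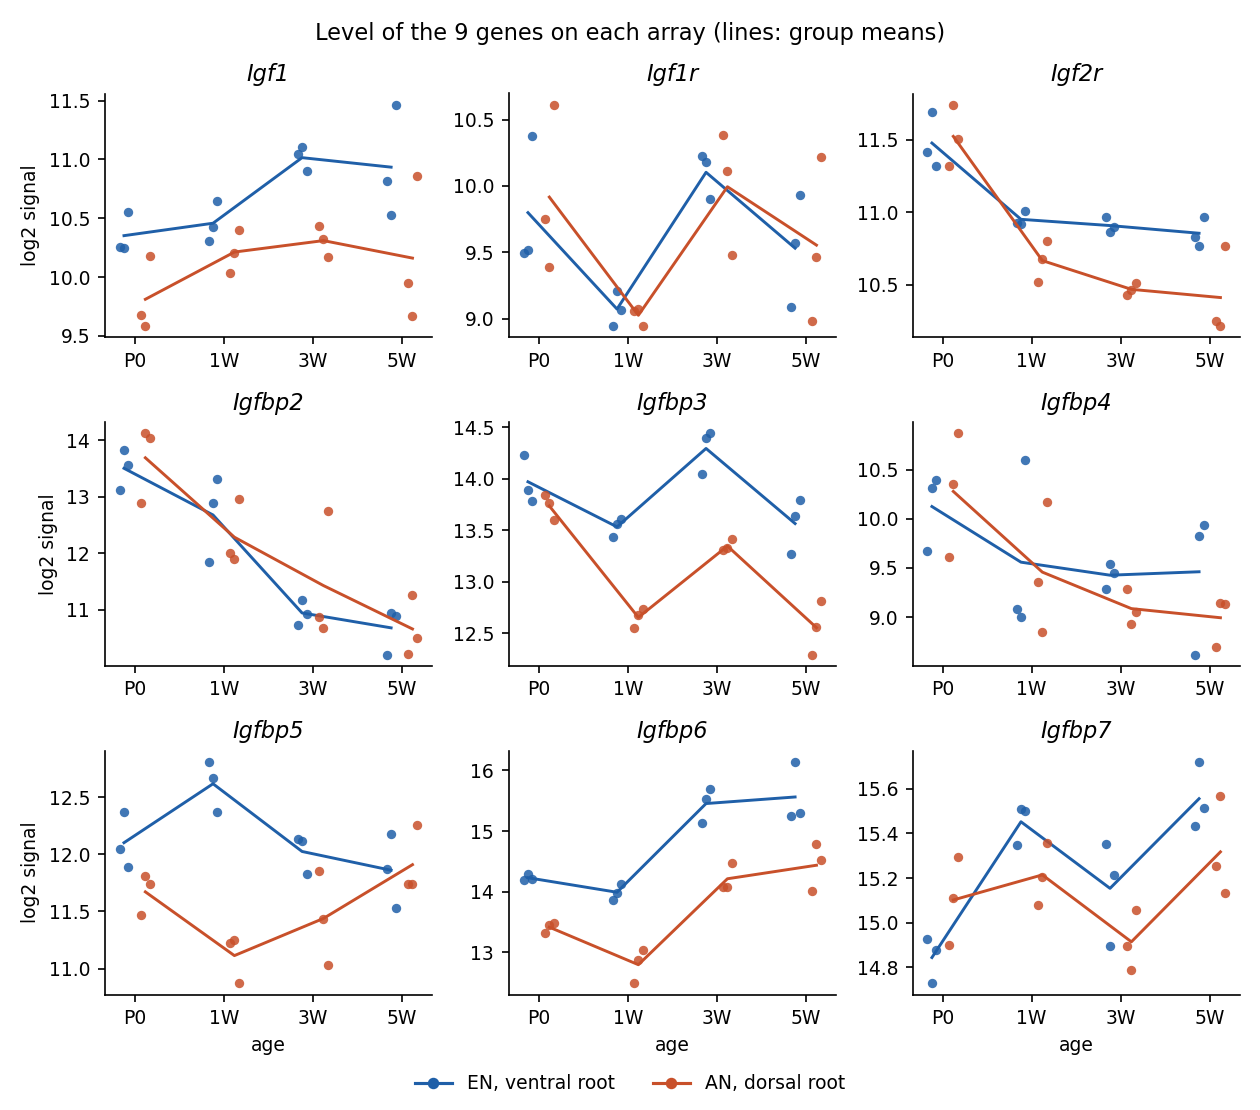
Log2 signal of the 9 genes (vertical axes) at P0, 1W, 3W and 5W (horizontal axes), each point an array and each line a group mean, for efferent (EN) and afferent (AN) fibres. Igfbp2 falls in both roots from means of 13.51 (EN) and 13.69 (AN) at P0 to 10.68 and 10.66 at 5W, while Igfbp6 stands higher in EN than in AN at every age.

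Between the roots, binding proteins made up all the genes called by their main probes in the fit without pairs. All of them were lower in AN. At P0 limma called 0 of 9 genes, while 0.222% of all tested probes were called higher and 0.516% lower in AN. At 1W, Igfbp3, Igfbp5 and Igfbp6 were lower in AN and 0 of 9 genes were higher, beside 1.26% of all probes lower and 2.74% higher. Igfbp3 and Igfbp6 were lower again at 3W, beside 2.82% of probes lower and 3.07% higher, and at 5W, beside 3.24% lower and 3.52% higher. The median AN minus EN difference over the 9 genes was 0.05, -0.28, -0.44 and -0.44 in order of age, while over all tested probes it was 0.01, -0.06, -0.03 and -0.03.

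Arrays of both roots with the same age and replicate number deviated from their group means together, so the roots were also compared as pairs. The labels do not state this pairing, which was taken from these same data. At 3W it was weak, with r of 0.184, 0.107 and 0.214 on replicates 1 to 3, so paired calls at 3W rest on weak pairing. At P0, 2 genes had an unadjusted p below 0.05, Igf1 and Igfbp6, and both were called lower in AN in the paired fit. This paired fit called 2.21% of all probes lower in AN at P0, and 5.67%, 12.8% and 12.9% at the 3 later ages. AN was the lower array in 12 of 12 pairs for Igf1, Igfbp3 and Igfbp6, in 11 for Igfbp5, and in 10 for Igf2r and Igfbp7. For Igfbp4 it was lower in 8 pairs, for Igf1r in 7 and for Igfbp2 in 5. The share of all probes with such pair counts is not given here. These counts therefore do not show whether the genes stand apart from probes in general.

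**Figure D2:**
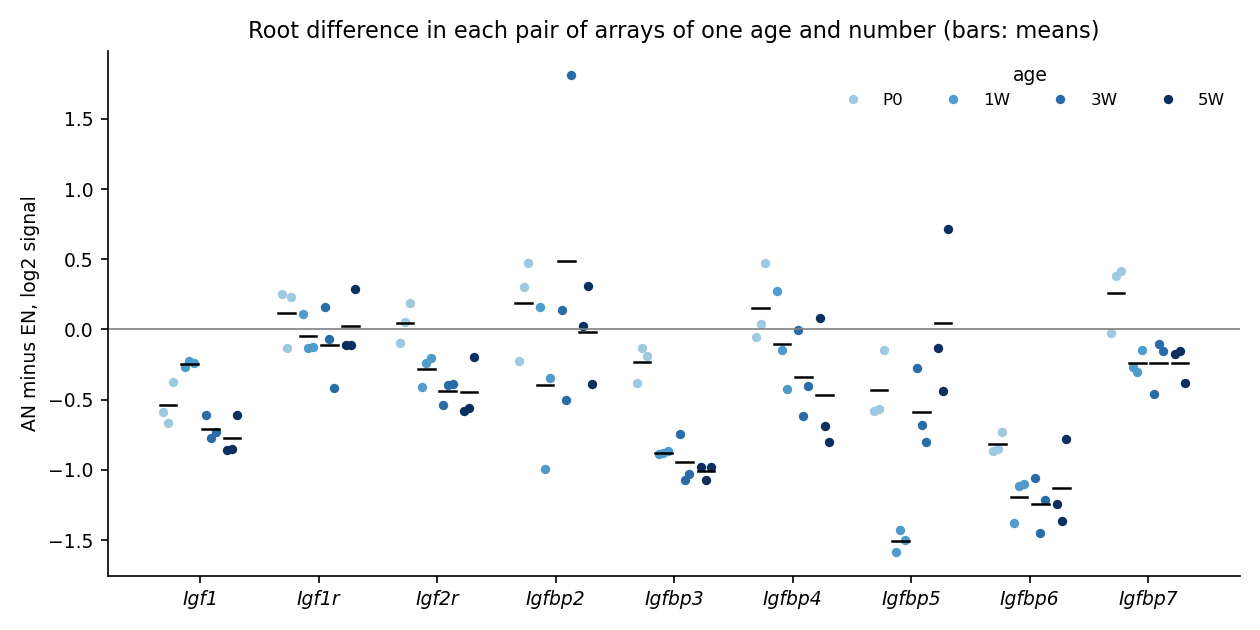
AN minus EN log2 signal (vertical axis) for each of the 9 genes (horizontal axis) in the 12 pairs of arrays with the same age and replicate number, coloured by age, with bars at the means. All 12 points lie below 0 for Igf1, Igfbp3 and Igfbp6, and the Igfbp5 points at 1W lie from -1.58 to -1.43.

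With age, 24 of 54 comparisons with P0 were called, and the direction depended on the gene. Many of all tested probes were called with age too, in the shares given below for each comparison. The total therefore does not show that these genes changed with age more often than probes in general. Igf2r, Igfbp2, Igfbp3 and Igfbp4 made up the genes that fell, and Igf1, Igfbp6 and Igfbp7 those that rose, while Igf1r and Igfbp5 were called at no age by their main probes. All comparisons of one root share its P0 arrays. In EN, 1 gene rose and 2 fell at 1W, where 15.5% of all probes rose and 11.6% fell. In EN at 3W, 2 rose and 2 fell, beside 29.0% and 26.0% of all probes. In EN at 5W, 2 rose and 3 fell, beside 28.2% and 26.0%.

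In AN, 2 of the 9 genes fell and 0 rose at 1W, beside 9.35% and 12.3% of all probes. In AN at 3W, 4 fell and 1 rose, beside 24.9% and 26.8%, and at 5W 4 fell and 1 rose, beside 24.2% and 26.4%. The median change from P0 over the 9 genes was, in order of age, -0.44, 0.30 and -0.27 for EN and -0.82, -0.23 and -0.36 for AN. Over all tested probes those medians lay between 0.01 and 0.06.

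**Figure D3:**
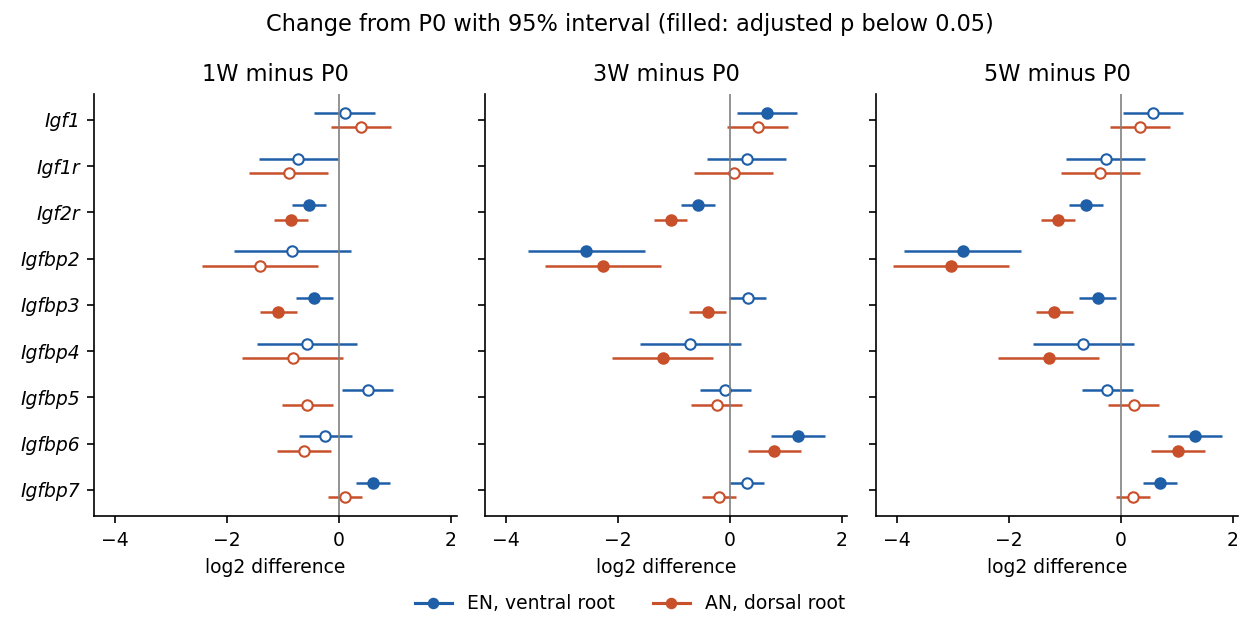
Change in log2 signal from P0 (horizontal axes) with its 95% confidence interval for the 9 genes (vertical axis), in a panel for each of 1W, 3W and 5W and coloured by root, with filled points for an adjusted p below 0.05. At 5W Igfbp2 stands at -2.82 in EN and -3.03 in AN, and Igfbp6 at 1.33 and 1.02.

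Several facts of the arrays touch these comparisons. Both roots of a replicate lay on the same slide, so slides do not separate the roots. All arrays of 3W lay on slide 4 with replicate 3 of 5W, and none of P0 did, so a change from P0 to 3W has no value within a slide. Slide 1 held replicate 1 of P0 and of 1W, and slide 3 held replicates 2 and 3 of P0, replicate 3 of 1W and replicate 2 of 5W, which gives values within slides for 1W and 5W. Across the 24 arrays, 55.1% to 71.7% of spots were well above background and 0 spots were saturated.

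Markers of the tissue were present and other cells were too. All 6 myelin markers and all 7 Schwann cell markers were well above background in every group. Markers of dividing cells fell in both roots, with 6 of 6 lower than at P0 at each later age, and markers of macrophages rose, with 5 to 7 of 7 higher. Sensory neuron markers, which a ventral root should largely lack, averaged 11.80 in EN at P0 and 7.08 in EN at 5W, and all 7 fell. Between the roots, 7 of 7 were higher in AN at 1W (median difference 4.97), 2 at 3W and 1 at 5W. In AN at 3W the same list averaged 9.03, 8.66 and 13.95 on replicates 1 to 3, so replicate 3 stood apart. Skeletal muscle markers swung between arrays too, with 13.29, 10.71 and 13.83 in AN at 3W and 13.41, 9.35 and 8.97 in AN at 5W. Adipocyte markers averaged 8.09, 7.15 and 10.94 in AN at P0. Of 5 astrocyte markers, 3 were higher and 1 lower in AN at 1W, and 3 were higher and 0 lower at 5W.

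Igf1, the ligand, was higher in EN than in AN in every pair of arrays by its main probe. On all 24 arrays, limma without a block called this difference at no age, while the paired fit called it at P0, 3W and 5W. In EN, replicates 1 to 3 read 10.26, 10.25 and 10.55 at P0, then 10.30, 10.43 and 10.64 at 1W, then 11.04, 11.10 and 10.90 at 3W, and lastly 10.81, 10.52 and 11.47 at 5W. In AN they read 9.67, 9.58 and 10.18 at P0, then 10.04, 10.20 and 10.40 at 1W, then 10.44, 10.33 and 10.17 at 3W, and lastly 9.95, 9.67 and 10.86 at 5W. The roots did not overlap at P0 and 3W and overlapped at 1W and 5W, where AN replicate 3 read close to the EN arrays.

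In order of age, the AN minus EN difference of Igf1 was -0.54, -0.25, -0.71 and -0.77 (SE 0.26), with limma adjusted p of 0.68, 0.801, 0.123 and 0.0817. Within pairs the SE was 0.08 and the difference was called at P0 (adjusted p = 0.0064), 3W (0.000632) and 5W (0.000367), but not at 1W (0.0797). Without AN 5W replicate 3, the unpaired difference was called at 5W (-1.12, adjusted p = 0.00472) and at 3W (-0.71, 0.0444), and without EN 5W replicate 2 it was called at 5W (-0.98, 0.0479). Probe A_52_P306327 was called lower in AN at 1W (-0.58, adjusted p = 0.0141), 3W (-0.60, 0.00963) and 5W (-0.58, 0.00988) in the unpaired fit. The remaining probe, A_55_P2085979, had -0.06, -0.23, -0.70 and -0.20 in order of age and was not called (adjusted p of 1.0, 0.778, 0.0761 and 0.679).

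The course of Igf1 with age differed between its probes. By the main probe, Igf1 rose in EN from P0 to 3W by 0.66 (SE 0.26, adjusted p = 0.0362), while the changes in EN at 5W (0.58, 0.064) and in AN at 3W (0.50, 0.113) and 5W (0.35, 0.271) were not called. The EN value at 5W was called without AN 5W replicate 2 (0.0453) or 3 (0.0221) or EN 5W replicate 2 (0.79, 0.0234), and the AN value at 3W without AN 5W replicate 3 (0.048). The EN rise at 3W was lost without each of EN P0 replicates 1 and 2 and EN 3W replicates 1, 2 and 3 (adjusted p from 0.0517 to 0.094) and with no filter on dim probes (0.0536). With slide as a block it turned to -0.35 (adjusted p = 0.234), and with scan day as a block to -0.24 (0.427). Both block fits link 3W to P0 only through replicate 3 of 5W in each root. Within slide 3, which held 1 array of 5W per root, 5W minus P0 was 0.13 in EN and -0.21 in AN. Within scan day 1, with 1 array of each age per root, it was 0.55 in EN and 0.28 in AN. The 4 highest EN values and the 2 highest AN values sat on slide 4, which held all 3W arrays and replicate 3 of 5W.

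The other 2 Igf1 probes went down. Probe A_52_P306327 read 8.05, 8.07 and 8.04 in EN at P0 and 7.04, 6.90 and 6.98 at 5W. In AN it read 7.74, 7.45 and 7.80 at P0 and 6.41, 6.52 and 6.27 at 5W. It fell at 3W by 1.17 in EN and 1.38 in AN, and at 5W by 1.08 and 1.26 (SE 0.13), with the highest adjusted p at 1.31e-06. Probe A_55_P2085979 fell at 3W by 0.55 in EN (SE 0.22, adjusted p = 0.0463) and by 1.18 in AN (0.00025), and its values at 5W were not called. The probes thus gave opposite called directions for Igf1 in EN at 3W, and the part of the slide in this was not tested.

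**Figure D4:**
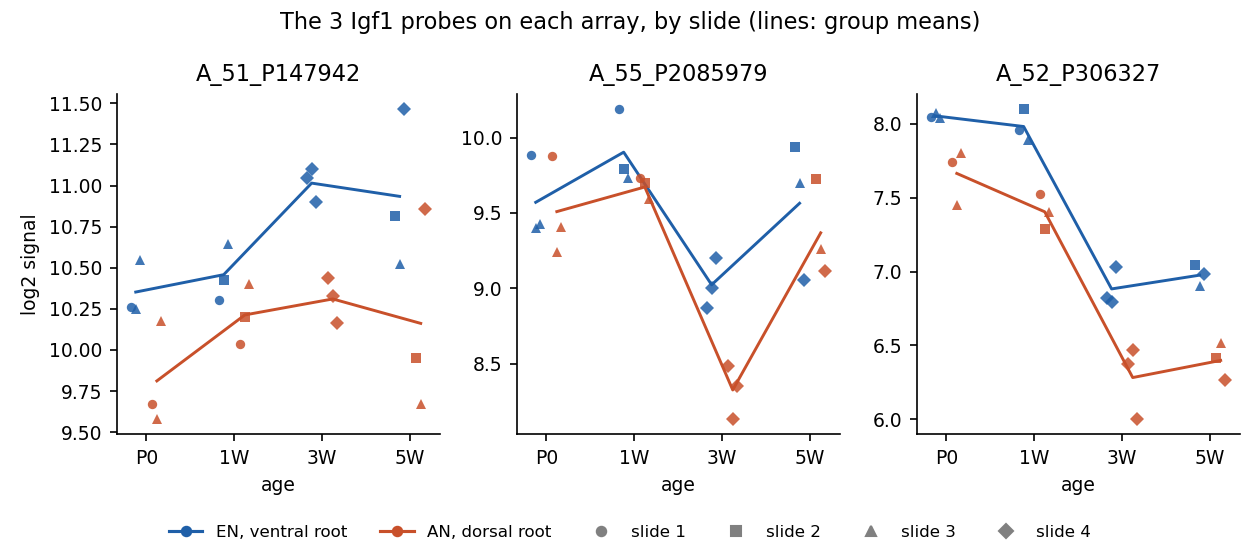
Log2 signal (vertical axes) of the 3 Igf1 probes at each age (horizontal axes), each point an array, coloured by root and shaped by slide, with lines at group means. The main probe is highest on slide 4 (diamonds of 3W and of 5W replicate 3, up to 11.47), whereas A_52_P306327 lies between 7.45 and 8.07 at P0 and between 6.27 and 7.04 at 5W.

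Igf1r, the tyrosine kinase receptor for IGF1, was not called between the roots at any age. Its AN minus EN differences by the main probe were 0.12, -0.05, -0.11 and 0.02 from P0 to 5W (SE 0.34), and the 95% confidence interval at 5W ran from -0.68 to 0.73. The EN arrays spanned 9.50 to 10.38 at P0 and 8.95 to 9.21 at 1W. The AN arrays spanned 9.39 to 10.61 at P0 and 8.94 to 9.08 at 1W. The 1W arrays lay below all P0 arrays of their root, with changes of -0.73 in EN (adjusted p = 0.119) and -0.89 in AN (0.0666) that were not called. Without AN P0 replicate 2 the AN change was -1.16 (adjusted p = 0.0311), and without AN 5W replicate 3 it stayed at -0.89 (0.0437).

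Other Igf1r probes gave more calls. Probe A_55_P2804885, which lies 38.575 kb from the main probe, fell at all 3 ages in both roots, by 0.43 to 1.21. Probe A_51_P318365 fell in AN at 1W by 0.72 (SE 0.24, adjusted p = 0.0359), and probe A_52_P668647 fell in AN at 1W by 1.28 (SE 0.32, 0.00692) and at 5W by 0.95 (0.0174). At 1W in AN all 4 probes had negative values, of which 3 were called. At 3W the main probe had positive uncalled values, 0.30 in EN and 0.08 in AN, where A_55_P2804885 was called lower in both, by 0.43.

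Igf2r, the receptor that removes IGF2, fell in both roots by 1W and stayed low. In EN, replicates 1 to 3 read 11.42, 11.69 and 11.32 at birth (P0), 10.93, 10.92 and 11.01 after 1W, 10.96, 10.86 and 10.90 after 3W, and 10.83, 10.77 and 10.97 after 5W. In AN they read 11.32, 11.74 and 11.51 at birth (P0), 10.52, 10.68 and 10.80 after 1W, 10.43, 10.47 and 10.51 after 3W, and 10.25, 10.21 and 10.77 after 5W. Every later array lay below all P0 arrays of its root.

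In EN, Igf2r fell by 0.53 at 1W (SE 0.14, limma adjusted p = 0.0108), 0.57 at 3W (0.00278) and 0.62 at 5W (0.0013). In the afferent root it fell by 0.86 (0.000317), 1.06 (7.85e-06) and 1.11 (3.43e-06), which is 2.16-fold at 5W. The call in EN at 1W was lost without EN P0 replicate 2 (-0.42, adjusted p = 0.0607). Within slides, EN changed by -0.50 and -0.49 at 1W and -0.74 at 5W, and AN by -0.82 and -0.80 at 1W and -1.41 at 5W.

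Igf2r did not differ between the roots at P0 beyond its spread (0.05), and afterwards AN lay lower by 0.28, 0.44 and 0.44 with adjusted p of 0.407, 0.081 and 0.0733. The paired fit called it at 3W (SE 0.09, adjusted p = 0.0102) and 5W (0.00877). Without AN 5W replicate 3 the unpaired fit called it too, at 3W (-0.44, 0.032) and 5W (-0.62, 0.00662). The change of the root difference from P0 was -0.49 at 3W and at 5W and was not called in the paired fit either (adjusted p = 0.0697 and 0.0531).

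Groups were also put in order of their means, and neighbours were checked for overlap of their arrays, which is no test. Groups further apart in the order can differ where neighbours overlap. For Igf1, EN at P0 and EN at 3W did not overlap. For Igf2r the P0 groups of both roots overlapped with each other and stood apart from EN at 1W, the next group down. The EN groups of 1W, 3W and 5W overlapped with their neighbours, and AN at 1W stood apart from AN at 3W. For Igf1 and Igf1r, all 7 steps between neighbouring groups overlapped in their arrays, with EN 3W at the top of both lists, AN P0 lowest for Igf1 and AN 1W lowest for Igf1r.

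Igfbp2, a binding protein of fetal and growing tissue, showed the largest change of the 9 genes. In EN, replicates 1 to 3 read 13.12, 13.82 and 13.57 at P0, then 11.84, 12.89 and 13.31 at 1W, then 10.73, 11.18 and 10.93 at 3W, and lastly 10.21, 10.95 and 10.89 at 5W. In AN they read 12.90, 14.13 and 14.05 at P0, then 12.003, 11.90 and 12.97 at 1W, then 10.87, 10.68 and 12.75 at 3W, and lastly 10.23, 11.26 and 10.50 at 5W. By 3W every array lay below all P0 arrays of its root, while at 1W the groups overlapped.

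At 3W Igfbp2 fell by 2.56 in EN (SE 0.50, limma adjusted p = 0.000291), a 5.89-fold decrease, and by 2.26 in AN (0.00094), 4.79-fold. At 5W it fell by 2.82 in EN (0.000101), 7.07-fold, and by 3.03 in AN (5.12e-05), 8.15-fold. At 1W the values were -0.83 in EN (0.235) and -1.40 in AN (0.0506), and the AN value was called when any of 7 arrays was left out. Those were AN P0 replicate 1 (-1.80, 0.0242), AN 1W replicate 3 (-1.74, 0.0316) and, through the pooled spread alone (adjusted p from 0.0164 to 0.0478), EN 1W replicates 1 and 3, AN 3W replicates 2 and 3 and AN 5W replicate 2. Within slide 3, 5W minus P0 was -2.74 in EN and -2.83 in AN.

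The roots did not differ in Igfbp2 beyond the spread at any age, with AN minus EN at 0.19, -0.39, 0.48 and -0.02. The 95% confidence interval at 5W, from -1.06 to 1.02, leaves room for a 2-fold difference either way. AN 3W replicate 3, where Igfbp2 read 12.75, was the array with the high sensory neuron markers. Without it, AN at 3W fell by 2.92 (SE 0.45, adjusted p = 4.1e-05) and the root difference at 3W was -0.17. The part of neuronal RNA in that reading was not tested.

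Igfbp3, the main carrier of IGF1 in blood, was lower in AN than in EN from 1W on. In EN, replicates 1 to 3 read 14.23, 13.89 and 13.79 at birth (P0), 13.44, 13.56 and 13.60 after 1W, 14.04, 14.39 and 14.44 after 3W, and 13.27, 13.63 and 13.79 after 5W. In AN they read 13.85, 13.76 and 13.60 at birth (P0), 12.55, 12.68 and 12.74 after 1W, 13.30, 13.32 and 13.41 after 3W, and 12.29, 12.56 and 12.81 after 5W. The roots overlapped at P0 and at no later age.

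The AN minus EN difference of Igfbp3 was -0.23 at P0 (SE 0.16, limma adjusted p = 0.988), -0.88 at 1W (0.00494), -0.95 at 3W (0.00138) and -1.01 at 5W (0.000612), which is 1.84-fold, 1.93-fold and 2.01-fold lower at the 3 later ages. Single pairs lay between -0.38 and -0.13 at P0, whereas the pairs of 1W lay between -0.89 and -0.87, those of 3W between -1.07 and -0.74, and those of 5W between -1.08 and -0.98. Each of the 3 calls held when any single array was left out, but with only the compared groups in the fit the 5W call was lost (-1.01, adjusted p = 0.152).

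Whether the root difference itself changed with age was tested as an interaction. Limma without pairs called 0 of 9 genes at 1W, 3W and 5W against P0, beside 0.0632%, 0.615% and 1.14% of all probes, with 3 genes at an unadjusted p below 0.05 at each age. The paired fit called 1 of 9, Igfbp3, at each age, beside 0.736%, 4.12% and 6.77% of all probes. Its AN minus EN difference moved from that of P0 by -0.64, -0.71 and -0.78 as the pups aged, with AN further below EN each time.

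Igfbp3 did not change evenly with age. In AN it fell by 1.08 at 1W (SE 0.16, limma adjusted p = 8.31e-05) and by 1.18 at 5W (5.3e-06), but at 3W by 0.39 (0.0473), a call that was lost when any of 16 arrays was left out (adjusted p up to 0.137) and kept without AN P0 replicate 3, EN P0 replicates 1 and 3, EN 3W replicate 1 and replicates 1 and 3 of 5W in both roots. In EN it fell by 0.44 at 1W (0.0477) and 0.41 at 5W (0.0378), and the value at 3W was 0.32 (0.0916). The EN call at 1W was lost when any of 17 arrays was left out (adjusted p up to 0.198) and kept without EN P0 replicate 3, AN 3W replicate 3, EN 3W replicate 1 and replicates 1 and 3 of 5W in both roots. The EN call at 5W was lost without EN P0 replicate 1 (-0.28, 0.186) or 2 (-0.44, 0.0502) and without EN 5W replicate 1 (-0.26, 0.203) or 2 (-0.44, 0.0503). Scaling to the 75th percentile in place of quantiles also ended these 3 calls, with -0.36 in EN at 1W (0.185), -0.22 in EN at 5W (0.358) and -0.18 in AN at 3W (0.457). So did dropping the filter on dim probes (adjusted p from 0.0518 to 0.0662) or fitting only the compared groups (0.0698 to 0.15). The 3W value in EN was called under that scaling (0.54, 0.0225) and without EN P0 replicate 1 (0.45, 0.0331) or EN 3W replicate 1 (0.45, 0.0386).

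Within slides, Igfbp3 changed by -1.30 and -0.94 in AN and by -0.79 and -0.24 in EN at 1W, and by -1.12 and -0.21 at 5W. A second Igfbp3 probe, A_55_P1992715, was dim and above background on 5 of 24 arrays. It was called lower in AN at 3W (-1.44, SE 0.41, adjusted p = 0.0474) and lower in EN at 1W (-1.14, 0.0487).

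Igfbp6, which binds IGF2 more tightly than IGF1, was also lower in AN and rose with age in both roots. In EN, replicates 1 to 3 read 14.19, 14.29 and 14.21 at P0, then 13.86, 13.98 and 14.13 at 1W, then 15.14, 15.53 and 15.69 at 3W, and lastly 15.25, 16.14 and 15.30 at 5W. In AN they read 13.32, 13.44 and 13.48 at P0, then 12.49, 12.87 and 13.03 at 1W, then 14.08, 14.08 and 14.47 at 3W, and lastly 14.01, 14.78 and 14.52 at 5W. The roots overlapped at no age, P0 included.

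The AN minus EN difference of Igfbp6 was -0.82 at P0 (SE 0.23, limma adjusted p = 0.138), -1.20 at 1W (0.00595), -1.24 at 3W (0.00298) and -1.13 at 5W (0.00482), which is 2.29-fold, 2.36-fold and 2.18-fold lower at the later ages. The paired fit also called the P0 difference (SE 0.12, adjusted p = 0.00593). Single pairs ranged from -1.45 to -0.73 over all ages, with a median of -1.10. With only the compared groups in the fit the 5W call was lost (-1.13, adjusted p = 0.238), and under the 75th percentile scaling the P0 difference was called (-0.93, 0.041). The change of this root difference with age was called in neither fit.

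From P0, Igfbp6 rose by 1.22 in EN at 3W (SE 0.23, limma adjusted p = 0.000194) and 1.33 at 5W (7.42e-05), which is 2.34-fold and 2.52-fold. AN rose by 0.80 at 3W (0.00682) and 1.02 at 5W (0.00102), 1.74-fold and 2.03-fold. At 1W the arrays lay below all P0 arrays of the same root, with changes of -0.24 in EN (0.47) and -0.62 in AN (0.0599) that were not called. The AN value at 1W was called without AN 5W replicate 1 (adjusted p = 0.0435) or 2 (0.0492) or EN 5W replicate 2 (0.0247), arrays that enter it only through the pooled spread. Within slide 3, 5W minus P0 was 1.89 in EN and 1.32 in AN.

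Fibroblast markers were lower on average in AN than in EN from 1W on. The 7 listed markers averaged 13.88 in EN and 13.86 in AN at P0, 13.74 and 13.38 at 1W, 14.11 and 13.56 at 3W, and 14.00 and 13.46 at 5W. Of the 7, 0, 2, 3 and 3 were called lower in AN at the 4 ages, and 0 were called higher at any. The fibroblast receptor gene Pdgfra differed by -0.82, -0.67 and -0.77 at 1W, 3W and 5W. On a log2 scale their summed signal lay between 19.37 and 19.52 in EN at 3W against 19.00 and 19.30 in AN, and at 5W between 19.24 and 19.52 against 18.77 and 19.21. At P0, where Igfbp6 did not overlap between the roots, the fibroblast sums did, at 18.80 to 19.20 in EN and 18.85 to 19.34 in AN. The sums overlapped at 1W too, at 18.93 to 19.18 in EN and 18.80 to 19.24 in AN. Neither Igfbp3 nor Igfbp6 overlapped between the roots at that age. On replicates 1 to 3 at 1W, the fibroblast marker means were 13.49, 13.73 and 14.00 in EN. In AN they were 13.12, 13.30 and 13.73, lower on each replicate. At P0 those means were 13.64, 14.01 and 13.99 in EN against 13.47, 14.03 and 14.08 in AN. Of the endothelial markers, 1, 3 and 1 of 7 were called lower in AN at 1W, 3W and 5W and 0 higher, while at P0 1 was higher. Their summed log2 signal lay between 16.34 and 16.48 in EN at 3W against 15.58 and 15.96 in AN, with all 7 above background in every group. The part of fibroblast or endothelial content in the Igfbp3 and Igfbp6 differences was not tested.

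Igfbp5, a binding protein that sits in the extracellular matrix, differed between the roots at 1W. Replicates 1 to 3 read 12.81, 12.67 and 12.37 in EN at 1W and 11.23, 11.25 and 10.87 in AN. At P0 they read 12.04, 12.37 and 11.89 in EN and 11.47, 11.81 and 11.74 in AN. At 3W they read 12.13, 12.11 and 11.83 in EN and 11.85, 11.43 and 11.03 in AN, and at 5W 11.87, 12.17 and 11.53 in EN and 11.74, 11.74 and 12.25 in AN. At 1W the roots lay far apart, and by 5W they overlapped.

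The AN minus EN difference of Igfbp5 was -1.503 at 1W (SE 0.22, limma adjusted p = 0.00108), 2.83-fold, the largest root difference among the 9 genes. It was -0.43 at P0 (0.744), -0.59 at 3W (0.128) and 0.05 at 5W (0.932). Without AN 3W replicate 1 the 3W difference was called (-0.79, 0.0441). A second probe, A_66_P101782, gave -1.55 at 1W (SE 0.39, adjusted p = 0.0298), and it was not called at the other ages. The 1W difference exceeded that at P0 by -1.07 (SE 0.31, unadjusted p = 0.0025), with an adjusted p of 0.258 over all probes. Sensory neuron markers, 7 of 7 of them higher in AN, also separated the roots at 1W, with summed log2 signals of 10.44 to 12.05 in EN against 16.16 to 16.49 in AN, and their part in the Igfbp5 difference was not tested.

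The main probe of Igfbp5 was called against P0 in neither root. At 1W the changes from P0 were 0.52 in EN (SE 0.22, adjusted p = 0.0868) and -0.56 in AN (0.0749), of opposite sign, and the AN value was called without AN 3W replicate 3 (0.0498). Probe A_66_P101782 fell at 3W by 1.62 in EN (SE 0.39, 0.002) and by 1.56 in AN (0.00286). The main probe had uncalled values of -0.08 and -0.23 there.

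Igfbp4, a binding protein that blocks IGF action until it is cut by the protease PAPP-A, fell in AN. Replicates 1 to 3 in AN read 9.62, 10.35 and 10.87 at birth (P0), 9.35, 8.85 and 10.17 after 1W, 9.28, 8.92 and 9.05 after 3W, and 8.70, 9.15 and 9.14 after 5W. The EN arrays spanned 9.67 to 10.40 at P0 and 8.62 to 9.94 at 5W. The P0 arrays themselves spread widely, and replicate 1 was the lowest in both roots.

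In AN, Igfbp4 fell by 1.19 at 3W (SE 0.43, limma adjusted p = 0.0264) and by 1.29 at 5W (0.018), which is 2.29-fold and 2.44-fold. The 3W call was lost without AN P0 replicate 2 (0.0622) or 3 (-0.90, 0.129) and without AN 3W replicate 2 (0.0745) or 3 (0.0549). The 5W call was lost without AN P0 replicate 3 (-0.99, 0.0964) or AN 5W replicate 1 (-1.14, 0.0643). In EN the values were -0.57, -0.70 and -0.66 and were not called.

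A second Igfbp4 probe, A_51_P398971, fell in AN by 1.45 at 3W (SE 0.32, adjusted p = 0.00105) and 1.56 at 5W (0.000516), and in EN by 0.81 at 3W (0.0411). Within slide 3, 5W minus P0 by the main probe was -1.47 in AN and -0.52 in EN. AN minus EN by the main probe was 0.15, -0.10, -0.34 and -0.47 in order of age and was not called, though the arrays of the roots did not overlap at 3W. By the second probe it was 0.04, -0.17, -0.60 and -0.92, without overlap at 3W and with an adjusted p of 0.102 at 5W.

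Igfbp7, a secreted relative that binds IGFs weakly, rose in EN. In EN, replicates 1 to 3 read 14.93, 14.73 and 14.88 at birth (P0), 15.35, 15.51 and 15.50 after 1W, 15.35, 14.89 and 15.21 after 3W, and 15.43, 15.72 and 15.51 after 5W. The 1W and 5W arrays lay above all P0 arrays. It rose by 0.61 at 1W (SE 0.15, limma adjusted p = 0.00458) and 0.71 at 5W (0.000437), 1.52-fold and 1.64-fold, and had 0.31 at 3W (0.0789), which was called without EN 3W replicate 2 (0.44, 0.0255). Within slides the rise was 0.42 and 0.70 at 1W and 0.92 at 5W. Of 7 endothelial markers in EN, 4 rose at 1W, 1 rose and 1 fell at 3W, and 2 rose and 1 fell at 5W. Their summed log2 signal in EN lay between 15.20 and 15.54 at P0 and between 16.13 and 16.28 at 1W. It lay between 16.34 and 16.48 at 3W, where Igfbp7 was not called, and between 16.52 and 16.66 at 5W. Other lists rose in EN at 1W too, with 7 of 7 macrophage and 4 of 6 myelin markers higher. Of 6 pericyte and smooth muscle markers, 4 were higher and 1 lower. The part of any of these cells in the Igfbp7 rise was not tested.

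In AN, where 1, 4 and 3 of 7 endothelial markers fell and 0, 0 and 1 rose at the later ages, Igfbp7 arrays ranged from 14.79 to 15.57 over all ages and the changes from P0 were 0.11, -0.19 and 0.22, none called. The difference between the roots' changes was -0.50 at each age and was not called, with adjusted p from 0.353 to 0.555 unpaired and of 0.0946 and 0.0761 at 3W and 5W in the paired fit. The roots themselves were 0.26 apart at P0 and -0.24 apart later, within the spread.

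Patterns over the 24 arrays can be set side by side as a description. Among the 9 genes the highest Pearson correlations were between Igf2r and Igfbp2 (0.72), Igfbp2 and Igfbp4 (0.72), Igf2r and Igfbp4 (0.71), Igf2r and Igfbp3 (0.63), and Igf1 and Igfbp6 (0.62), and Igfbp2 with Igfbp6 gave -0.51. The arrays share ages, roots and slides, so these values have no test. Of 17728 other genes, those most alike were Cemip2 (0.91) and A630095N17Rik (0.90) for Igf1, Resf1 (0.89) and Cul3 (0.86) for Igf1r, and Gpr153 (0.95) and Bend4 (0.95) for Igf2r. For the binding proteins they were Glce (0.97) and Slc19a1 (0.96) for Igfbp2, Cldn1 (0.91) and Klf5 (0.86) for Igfbp3, and Dhx9 (0.96) and Pa2g4 (0.91) for Igfbp4. Igfbp5 was most like D930048N14Rik (0.76) and Wnt2 (0.74), Igfbp6 like Nbl1 (0.93) and Vill (0.92), and Igfbp7 like Tmem170b (0.84) and Nxpe4 (0.82).

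The promoters of 4 genes that changed with age are shown because they span the range of base composition, and genes that rose lie at both ends of it. Windows of 250 bases before the start were taken from RefSeq, build GRCm38.p6, in which 9 of 9 genes had an entry. Searched on both strands and given in capitals were the GC box GGGCGG, the CCAAT box CCAAT, the TATA motif TATAAA and the E box CACGTG. Of all 32851 promoter windows, 32.7%, 33.8%, 12.4% and 6.02% held them. Such a match is a description of letters and not a binding site.
Igf2r chr17:12769707-12769956 minus strand: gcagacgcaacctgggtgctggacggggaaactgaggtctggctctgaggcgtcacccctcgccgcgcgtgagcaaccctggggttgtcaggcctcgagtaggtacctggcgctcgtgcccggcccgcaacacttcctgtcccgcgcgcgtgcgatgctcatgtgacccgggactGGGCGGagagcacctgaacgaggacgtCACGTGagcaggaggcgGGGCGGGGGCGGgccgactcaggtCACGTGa
Igfbp2 chr1:72824230-72824479 plus strand: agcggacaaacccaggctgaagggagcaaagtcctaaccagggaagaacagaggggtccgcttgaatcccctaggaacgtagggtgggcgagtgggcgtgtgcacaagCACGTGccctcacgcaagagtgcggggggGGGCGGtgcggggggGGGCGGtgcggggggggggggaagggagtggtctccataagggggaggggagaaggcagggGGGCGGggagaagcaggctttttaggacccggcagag
Igfbp6 chr15:102143936-102144185 plus strand: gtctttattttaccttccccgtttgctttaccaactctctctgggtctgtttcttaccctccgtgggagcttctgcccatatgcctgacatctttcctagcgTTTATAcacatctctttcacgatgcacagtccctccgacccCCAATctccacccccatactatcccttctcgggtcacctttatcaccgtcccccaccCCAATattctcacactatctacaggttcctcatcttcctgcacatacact
Igfbp7 chr5:77408046-77408295 minus strand: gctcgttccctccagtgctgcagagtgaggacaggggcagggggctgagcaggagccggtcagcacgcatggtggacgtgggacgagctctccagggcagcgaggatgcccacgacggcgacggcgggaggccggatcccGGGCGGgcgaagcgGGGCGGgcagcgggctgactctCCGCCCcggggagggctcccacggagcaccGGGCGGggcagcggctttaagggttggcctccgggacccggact

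The Igf2r window is 69.2% GC and holds 3 GC boxes and 2 E boxes, and the Igfbp2 window is 67.2% GC with 3 GC boxes and 1 E box. A second Igfbp2 entry further on held none of the 4 motifs. The Igfbp6 window is 49.6% GC, below the median of 52.4% over all windows, with 2 CCAAT boxes and 1 TATA motif on the other strand. The Igfbp7 window is 74% GC with 4 GC boxes. Among the other windows of genes called with age, GC was 52.8% for Igf1, 73.2% for Igfbp3 and 69.2% for Igfbp4. It was 56.4% for the second Igfbp2 entry. Whether the share of GC goes with the direction of change was not tested. Of the rest, Igf1r held 2 GC boxes, Igfbp4 1 TATA motif and Igf1 1 CCAAT box, while the Igfbp3 and Igfbp5 windows held none of these letters.

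The wider pathway was read from a list of 56 genes, 47 of them not among the 9 and 43 of those tested. From P0 to 5W, 16 of the 43 rose and 12 fell in EN, and 16 rose and 12 fell in AN, beside 28.2% and 26.0% of all probes in EN and 26.4% and 24.2% in AN. At 1W 8 rose and 11 fell in EN and 8 rose and 6 fell in AN. At 3W 18 rose and 12 fell in EN, and 16 and 13 in AN, ages for which the shares of all probes stand beside the counts of the 9 genes. Between the roots, 0, 2, 2 and 3 were higher and 0, 0, 0 and 1 lower in AN from P0 to 5W.

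Igf2, the second ligand, fell from 15.19 to 11.86 in EN (-3.33, limma adjusted p = 2.98e-07) and from 15.32 to 11.33 in AN (-3.99, 2.85e-08) between P0 and 5W, without a called difference between the roots. Igfals, which encodes the acid-labile subunit of the circulating complex, was above background on 0 arrays. Of the related receptors, the insulin receptor gene Insr rose (0.87 in EN and 0.80 in AN) and the orphan receptor gene Insrr fell (-3.43 and -3.69). Igfbp1 fell (-3.63 and -3.69), and Igfbpl1 was not called at 5W (0.54 and 0.17) but rose in EN at 3W (0.66, 0.0264).

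Proteases of the binding proteins changed in both directions. Pappa, which encodes the protease that cuts IGFBP4, fell by 2.42 in EN (limma adjusted p = 0.000369) and 2.40 in AN (0.000422) from P0 to 5W, and at 1W was higher in AN by 2.69 (0.00495), when 7 of 7 sensory neuron markers were higher there too. The part of neuronal RNA in that difference was not tested. Pappa2 fell by 4.39 in EN and fell by 3.56 in AN, and the secreted serine protease gene Htra1 rose by 2.19 and 2.28. The protease inhibitor genes Stc1 and Stc2 were too dim to test, at 0 and 3 arrays above background.

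In the growth hormone axis, which drives Igf1 in liver, 2 of 5 genes rose and 1 fell in EN at 5W, and 1 rose and 2 fell in AN, in lists too short to read against the 24.2% to 28.2% of all probes called in each direction. Socs2, an inhibitor of that pathway, fell by 1.23 in EN and 2.01 in AN, and the transcription factor gene Stat5b rose by 0.89 and 0.88. Of 8 receptor substrates and adaptors, 3 rose and 2 fell in either root, close to the share of all probes given above. Grb10, an adaptor that restrains the receptor, fell by 2.54 and 2.30. Its relative Grb14 rose by 1.14 in EN and 2.04 in AN, was higher in AN at 3W (0.48, limma adjusted p = 0.0296) and 5W (0.52, 0.018), and the growth of this difference from P0 was called at 3W (0.86, 0.0346) and 5W (0.89, 0.0186). Sos1 rose by 1.07 and 1.25, and Irs1 by 0.83 and 1.00.

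Of 18 genes of the PI3K, Akt and mTOR cascade, 6 rose and 3 fell in EN at 5W, and 7 rose and 2 fell in AN, beside 28.2% and 26.0% of all probes in EN and 26.4% and 24.2% in AN. The PI3K regulatory subunit gene Pik3r1 rose by 1.58 in EN and 1.72 in AN, and Tsc1, a brake on mTOR, by 0.77 and 1.11. Eif4ebp1, a translation repressor that mTOR switches off, fell by 1.00 and 1.08. Of the 4 FoxO factors, which Akt keeps out of the nucleus, 3 rose and 1 fell in both roots. Foxo6 fell by 2.70 in EN and 1.99 in AN and was higher in AN at 1W (0.84), 3W (1.45) and 5W (0.80), while Foxo4, Foxo1 and Foxo3 rose by 0.91 to 1.97.

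**Figure D5:**
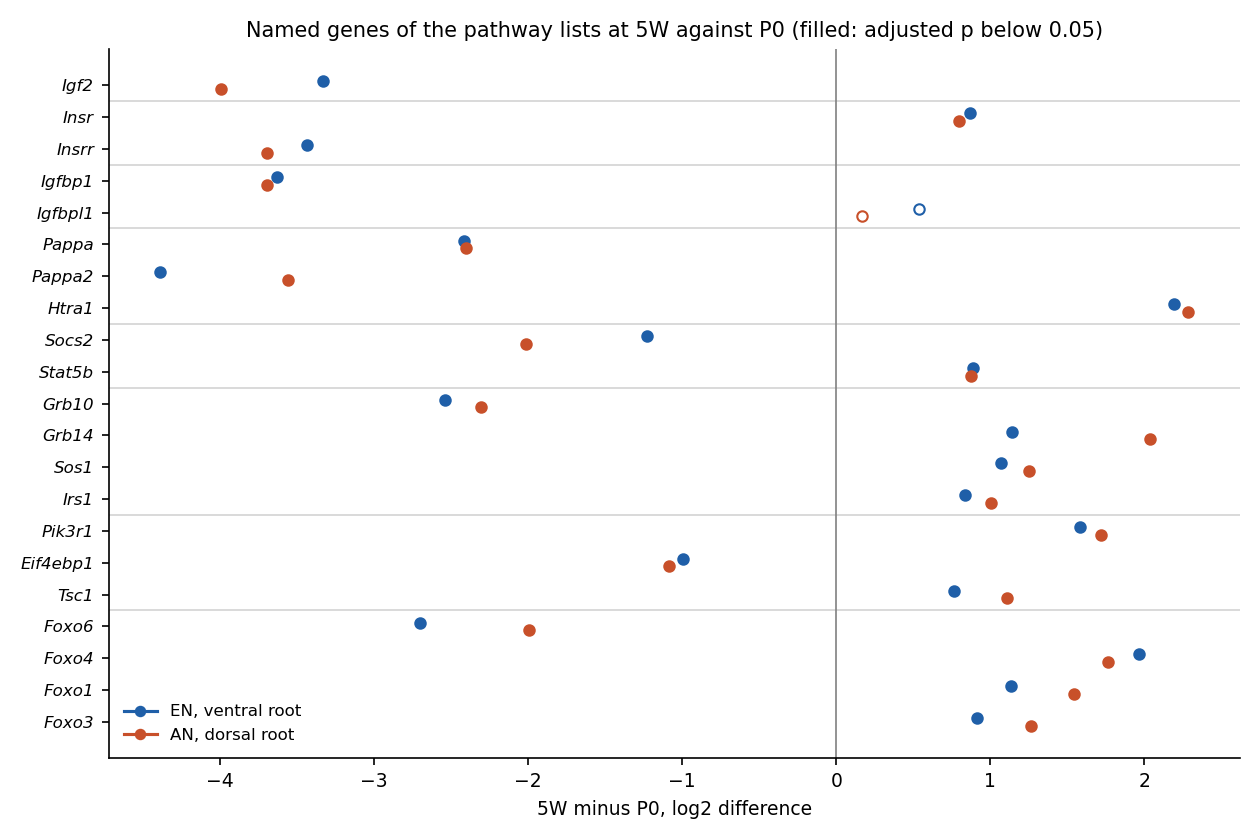
Change in log2 signal from P0 to 5W (horizontal axis) of the pathway genes named in the text, outside the 9 (vertical axis), in EN and AN, with filled points for an adjusted p below 0.05. Igf2 stands at -3.33 in EN and -3.99 in AN, and Htra1 at 2.19 and 2.28, while the Igfbpl1 points are open.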

How the data were processed

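Total RNA from 24 samples was labelled with Cy3 and hybridised to 1-colour Agilent mouse arrays, and the authors read the scans with Agilent Feature Extraction 10.7.1.1. The deposited series table holds log2 values that the authors quantile normalised. The scanner files hold each spot's intensity, deposited per array without normalisation between arrays. Each column of the log2 table correlated best with the scanner signal of its own array (r from 0.995 to 1.00). The number of arrays limits the precision.

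The log2 table was fitted with limma 3.58.1 in R 4.3.3, with 1 mean per group over 24 arrays. A gene probe entered the test if, in some group, each of the 3 arrays flagged it as well above background, which left 36409 of 56605. P-values were adjusted by the Benjamini-Hochberg method over all of them and called below 0.05. Contrasts were AN against EN at each age, each later age against P0, and the change of the root difference. Of the gene probes, 32994 were named by accession, 10224 by gene name and 520 by an older name through a RefSeq table, and 12867 kept no symbol.

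The labels do not pair AN and EN arrays, and the pairing was taken from these same data. Arrays of the same age and number deviated together in all 12 pairs (r from 0.107 to 0.646). A fit with age and number as a block was therefore also run. The same number at different ages gave r from -0.347 to 0.378, a range that also holds the 3W pairs (0.107 to 0.214). Whether a shared slide made the pairs deviate together was not tested. Slide and scan day were taken from the scanner file headers. Alternatives were other normalisations, a normexp background correction with an offset of 50, other filters, blocks, array weights, the study's thresholds, other probes, and each array left out.

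The genes named are the 9, the 2 genes most alike to each, non-members of the ligand, receptor, binding protein and protease lists, and up to 4 genes per remaining pathway list that changed most at 5W in both roots, of which 1 is not reported here. The members and lists were chosen with earlier results of these data known. Tables and figures were made with matplotlib 3.10.9, scipy 1.17.1 and pandas 2.3.3 (numpy 2.4.6, python 3.11.15), and the fit was tested on simulated data.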

Additional observations from a re-analysis of the deposited data

Results flagged for a closer look

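The difference between the roots in Igfbp3 was not the same at all ages in the paired fit. AN minus EN was -0.23 at P0, and relative to that it was -0.64 at 1W (SE 0.11, limma adjusted p = 0.0422), -0.71 at 3W (0.0115) and -0.78 at 5W (0.0064) with age and replicate number as a block. All 3 pairs of each later age lay below all 3 pairs of P0. Without the block the adjusted p was 0.391, 0.217 and 0.117. Fibroblast markers averaged 13.88 in EN and 13.86 in AN at P0 and 14.00 and 13.46 at 5W, and their part in this change was not tested. Endothelial markers averaged 11.03 in EN and 11.57 in AN at P0 and 11.39 and 11.07 at 5W, and their part was not tested either.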

How the results depend on the processing

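Of 31 called values, 24 were kept when each of the 24 arrays was left out in turn. The number of genes called then ranged from 2 to 4 between the roots at 3W and at 5W, from 1 to 3 in EN at 1W, from 2 to 4 in AN at 1W, from 3 to 6 in AN at 3W, and from 0 to 1 for the change of the root difference at 5W. The lowest EN count at 1W came without EN P0 replicate 2, and AN 5W replicate 3 was the array behind the highest root counts. Of 4334 alternative values, 90 had the other sign with neither value called and 11 had the other sign with a call.

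Replicate pairing changed calls only upward in the values compared. With the replicate block within age, 2 genes were called between the roots at P0, 4 at 3W and 4 at 5W, and 1 for each of the 3 changes of the root difference, and it changed no other call. With the replicate block over all arrays, 1 gene was called between the roots at P0 and 4 in AN at 1W. The slide block and the scan-day block gave 1 at P0, 4 at 3W, 4 at 5W and 1 for the change of the root difference at 5W, and the scan-day block 4 in AN at 1W. Array weights gave 4 between the roots at 3W and 5W, 7 in AN at 1W and 1 for the change at 1W. Scaling to the 75th percentile gave 1 between the roots at P0. Normexp and the filter for all 24 arrays each gave 4 in AN at 1W. A setting can also move the calls over all probes. With the replicate block within age, 12.9% of all probes were called lower in AN at 5W, against 3.24% without it. For the other settings no share of all probes is given here. Their counts therefore do not show whether these genes gained calls beyond probes in general.

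With only the compared groups fitted, 0 genes were called between the roots at 5W, where the same limma fit had 4 at an unadjusted p below 0.05 over 8 groups, and the second brightest probes gave 1. Under the unadjusted p below 0.05 with a fold above 2, 1 gene was called between the roots at 3W, 0 in EN at 1W, 2 in EN at 3W, 2 in EN at 5W, 3 in AN at 3W and 1 for the change at 1W. Shares of all probes under these settings are not given here either, and the cause of these moves was not tested.

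Signs turned against a call for 3 genes. For Igf1 the EN change at 3W was -0.35 with the slide block, -0.24 with the scan-day block, -0.55 by A_55_P2085979 and -1.17 by A_52_P306327. Both block fits link 3W to P0 only through replicate 3 of 5W. The Igf1 change by A_52_P306327 was -1.08 in EN at 5W, -1.38 in AN at 3W and -1.26 in AN at 5W, and by A_55_P2085979 it was -1.18 in AN at 3W. Igf1r by A_55_P2804885 was -0.43 at 3W in both roots, and Igfbp3 by the dim A_55_P1992715 was 0.52 in AN at 3W.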
